A study of Homo sapiens with 30 samples.

Results

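The 9 genes described here, ZNF426, ZNF560, ZNF559, ZNF561, ZNF562, ZNF121, ZNF846, ZNF177 and ZNF266, are zinc finger genes that lie together in 19p13.2, out of 68608 genes in the deposited tables. They were chosen by symbol and position around ZNF426 and ZNF560, which had been selected on their fold changes in NGP cells between antisense oligonucleotides (ASOs) to NESPR and the control ASO, among the largest there. The NGP values of all 9 are therefore given as a description with no test, as are the control levels of ZNF426 and ZNF560. Tests are kept to IMR32, to SK-N-BE(2)c, and to the other 7 genes where NGP controls are set against SK-N-BE(2)c controls.

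RNA sequencing had been done on 30 libraries in 9 groups from IMR32, NGP and SK-N-BE(2)c, established human neuroblastoma cell lines, each transfected by lipofection with 100 nM of an ASO. ASO1, ASO2 and ASO10 target NESPR, a long non-coding RNA, and NCA is the negative control ASO. IMR32 had 4 libraries each of ASO1, ASO2 and NCA, and NGP and SK-N-BE(2)c had 3 libraries each of ASO2, ASO10 and NCA. No untransfected group was analysed here, each line is a single model, and the labels give neither the time after transfection nor whether replicates came from separate cultures, so p-values measure only the spread between these libraries. The knockdown of NESPR itself was not analysed here.

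IMR32 libraries held 9393587 to 13932379 reads, NGP libraries 11591178 to 13795561 and SK-N-BE(2)c libraries 11497829 to 15060356. All 12 markers of adrenergic neuroblastoma cells stood at a mean of at least 10 normalized counts in every group. Of 6 markers of other cell types 1 to 3 reached 10 in a group, and PTPRC and HBB, of blood cells, did so in none of the 9 groups. The fibroblast markers did reach it, COL1A1 in every group of IMR32 and NGP, and DCN in every group of SK-N-BE(2)c. The summed level of the markers of other cell types in each table (6 in IMR32, 5 in the others) was 645 to 727 in IMR32 controls, 696 to 793 with ASO1 and 822 to 982 with ASO2. NGP controls had 173 to 200.3, ASO2 libraries 244 to 292 and ASO10 libraries 149 to 211, and SK-N-BE(2)c had 265 to 275, 377.1 to 387.5 and 225 to 252 in that order. The summed level of the adrenergic markers was 106000 to 108900 in NGP controls and 95740 to 102600 in its ASO libraries, and 101500 to 111900 against 88560 to 94360 in SK-N-BE(2)c. IMR32 had 57240 to 60080 in controls, 51890 to 57380 with ASO1 and 52980 to 59300 with ASO2. The 6 markers of mesenchymal-type neuroblastoma cells summed to 10730 to 10990 in NGP controls and 11740 to 14980 in its ASO libraries, and to 3377 to 3520 against 4004 to 4452 in SK-N-BE(2)c, with PRRX1 below 10 throughout. In IMR32 they summed to 3971 to 4579 in controls, 3530 to 4191 with ASO1 and 4439 to 4868 with ASO2. The part of these shifts in the results was not tested. In NGP and SK-N-BE(2)c, replicate 1 of NCA carries another spelling of the control than replicates 2 and 3, which could stand for another oligonucleotide. Values that turn on that library are given with and without it.

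Zinc finger proteins of the C2H2 type read DNA through an array of finger domains, and their genes multiplied by tandem duplication into clusters, many of them on chromosome 19. Many carry a KRAB domain, which recruits TRIM28 (also called KAP1) and, with it, the histone methyltransferase SETDB1 and heterochromatin protein HP1, and so silences the DNA that is bound. Such clusters can themselves be covered by repressive chromatin, and neighbouring members often differ in whether they are expressed.

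The 9 genes span 0.469 Mb in the annotation used for order (GENCODE release 29, GRCh38). ZNF559 and ZNF177 lie first, on the plus strand, and ZNF266, ZNF560, ZNF426, ZNF121, ZNF561, ZNF562 and ZNF846 follow on the minus strand. ZNF560 (ENSG00000198028, chr19:9466507-9498607) and ZNF426 (ENSG00000130818, chr19:9523224-9538645) are next to each other among the 9, with ZNF266 on one side of the pair and ZNF121 on the other. RefSeq start sites with their upstream bases (GRCh38.p14) were found for 8 of the 9, all but ZNF559.

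The 250 bases before the start site are shown for the neighbours ZNF560 and ZNF426, nearly silent in NGP controls, and for ZNF121 and ZNF177. ZNF121 had the highest level per length in the controls of all 3 lines. ZNF177 averaged below 10 normalized counts in every group, and 86.8% of its 50-base stretches are shared with a read-through gene. The longest stretch found in at least 5 of the 8 promoters was CGGAAGTGACGT, of 12 bases, and its first 8 (CGGAAGTG) and last 6 (TGACGT), which share the letters TG, were then searched alone. Capitals mark both, on either strand, and TGACGTCA reads as TGACGT on both strands.
ZNF426 (chr19:9538646-9538895, minus strand): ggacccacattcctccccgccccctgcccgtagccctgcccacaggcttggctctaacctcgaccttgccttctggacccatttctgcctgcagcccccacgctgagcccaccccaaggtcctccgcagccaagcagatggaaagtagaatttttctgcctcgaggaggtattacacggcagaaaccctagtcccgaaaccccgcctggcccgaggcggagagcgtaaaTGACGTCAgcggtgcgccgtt
ZNF560 (chr19:9498617-9498866, minus strand): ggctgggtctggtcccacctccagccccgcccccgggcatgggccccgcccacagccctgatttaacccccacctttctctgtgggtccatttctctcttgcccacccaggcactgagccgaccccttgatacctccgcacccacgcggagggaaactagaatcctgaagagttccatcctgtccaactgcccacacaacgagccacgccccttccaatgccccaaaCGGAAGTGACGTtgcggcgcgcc
ZNF121 (chr19:9584505-9584754, minus strand): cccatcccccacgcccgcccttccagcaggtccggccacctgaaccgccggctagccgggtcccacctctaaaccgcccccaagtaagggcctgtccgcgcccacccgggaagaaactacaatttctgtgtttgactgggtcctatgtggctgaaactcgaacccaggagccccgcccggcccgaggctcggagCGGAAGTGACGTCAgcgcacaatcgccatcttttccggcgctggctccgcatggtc
ZNF177 (chr19:9362763-9363012, plus strand): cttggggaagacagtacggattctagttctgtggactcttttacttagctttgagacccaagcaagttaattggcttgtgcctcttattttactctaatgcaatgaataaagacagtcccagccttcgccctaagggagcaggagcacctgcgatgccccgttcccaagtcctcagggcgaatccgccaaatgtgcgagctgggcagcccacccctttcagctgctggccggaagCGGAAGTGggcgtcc

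These promoters resemble each other near the start site. CGGAAGTG was in 7 of the 8, all but ZNF426, against 3.15% of 35116 promoters of the same length, and TGACGT was in 6, all but ZNF846 and ZNF177, against 7.1%. The whole stretch CGGAAGTGACGT was in 5 of the 8 (ZNF560, ZNF561, ZNF562, ZNF121 and ZNF266), and only 70 of all promoters (0.199%) held it. Among 33 promoters of other zinc finger genes of 19p13.2 none held the whole stretch, and among 511 promoters of ZNF genes outside the 9 none did either. The matches ended 1 to 48 bases before the start site. CG pairs numbered 16 in the ZNF426 promoter, 14 in ZNF560, 22 in ZNF121 and 10 in ZNF177, against a median of 11 over all promoters. The whole stretch was thus in ZNF121, the highest per length, and in ZNF560, nearly silent in NGP controls. ZNF426 held TGACGT without CGGAAGTG, and ZNF177 held CGGAAGTG without TGACGT. These letters were taken from these sequences, and the stretch was picked for being in at least 5 of the 8. The shares among the 8 follow from that choice and are a description, not a test. Whether the letters are a binding site was not tested.

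**Figure D1:**
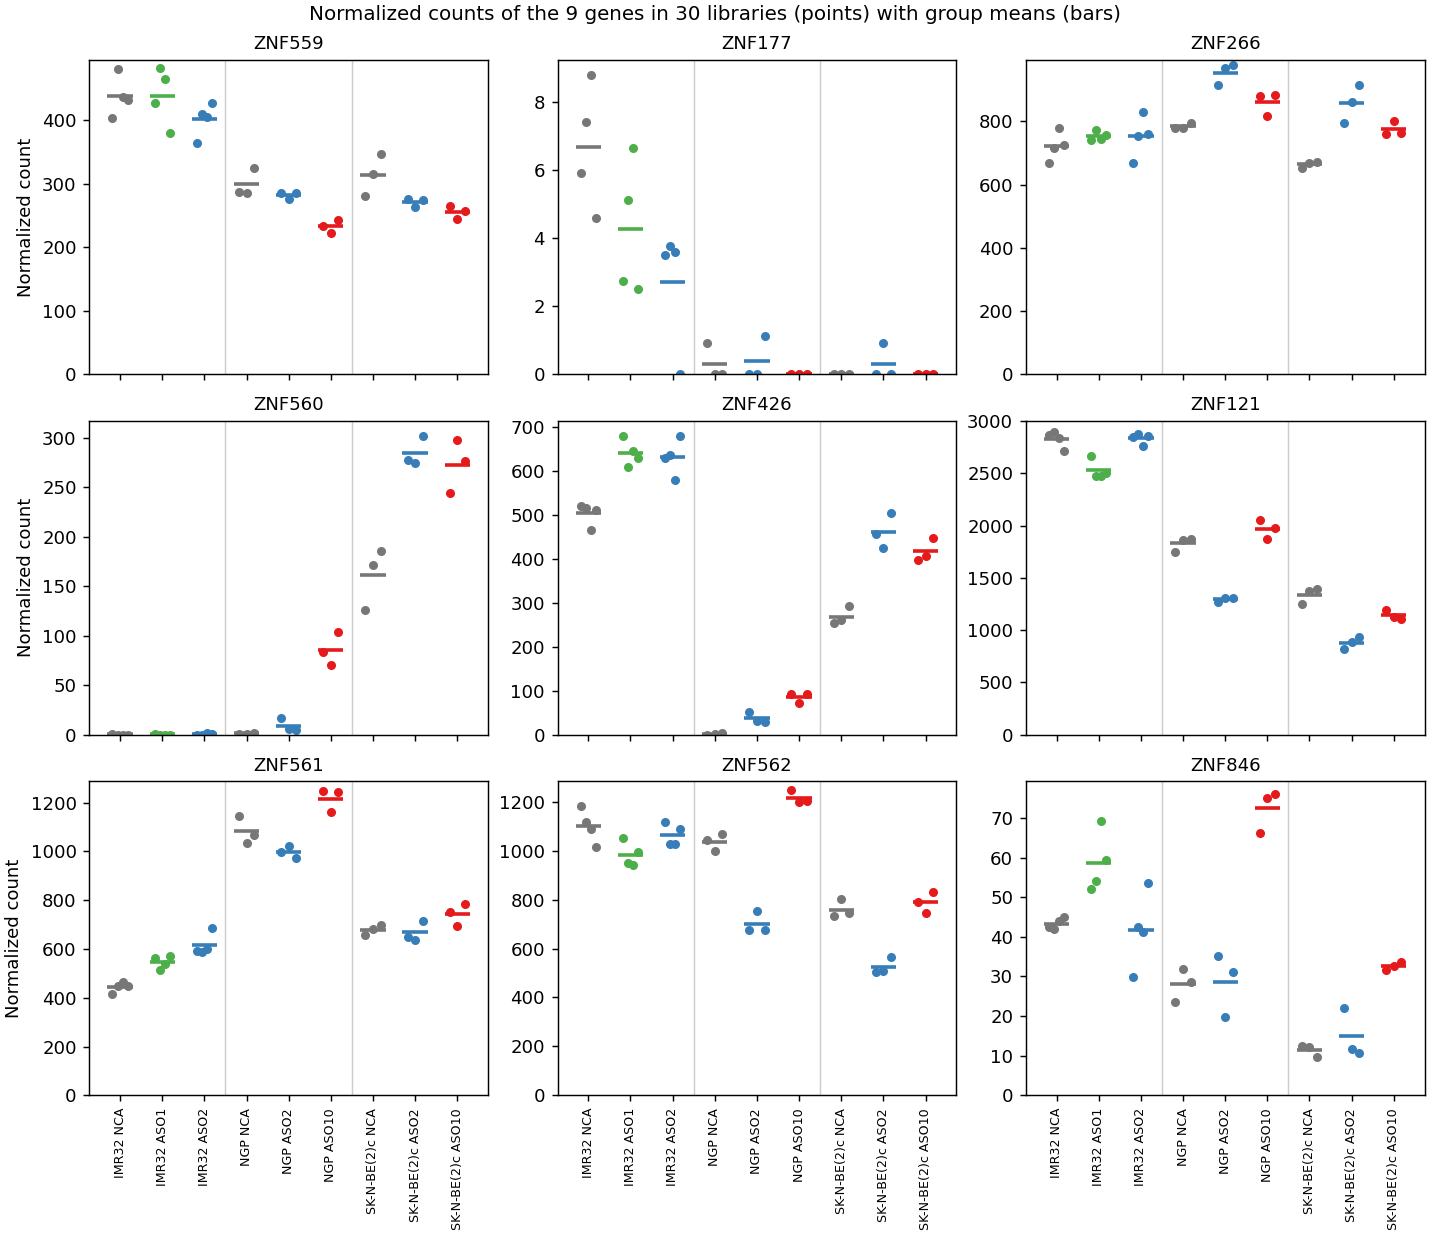
Normalized count (linear axis, one panel per gene in chromosomal order) in each of the 30 libraries, with points for libraries and bars for group means. ZNF560 stands near 0 in IMR32 and in NGP with NCA, ZNF426 near 0 only in NGP with NCA, and ZNF846 is highest with ASO10 in each line that had it.

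In control cells the neighbours ZNF426 and ZNF560 were close to silent in NGP and expressed in SK-N-BE(2)c. ZNF426 was at normalized counts of 0, 1.77 and 4.10 in the 3 NGP libraries with NCA (6 reads in all) and at 254, 260.1 and 293 in those of SK-N-BE(2)c. ZNF560 was at 0.911, 0.886 and 2.05 in NGP (4 reads in all) and at 126, 171 and 186 in SK-N-BE(2)c. The NGP level was 0.00695 of the SK-N-BE(2)c level for ZNF426 (95% exact binomial interval 0.00254 to 0.0152) and 0.00772 for ZNF560 (0.0021 to 0.0199). These intervals cover counting error only. Reads this few bound the NGP level from above and do not say whether it was 0.

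The other members went the opposite way or did not differ. Against SK-N-BE(2)c, control NGP cells had more of ZNF561 (log2 fold change 0.67, SE 0.0628, limma adjusted p 6.56e-10), ZNF562 (0.45, adjusted p 9.75e-07), ZNF121 (0.45, adjusted p 2.1e-07), ZNF846 (1.22, adjusted p 0.000245) and ZNF266 (0.24, adjusted p 0.000884). For ZNF559 the difference was -0.07 (adjusted p 0.5), and ZNF177 had at most 1 read in any library of either line. Of the 7 genes open to test, 6 passed the minimum of 10 normalized counts on average, and 5 of these were called higher. Over all 14537 genes tested, 39.8% were called higher in NGP and 37.3% lower (77% in either direction). ZNF266 and ZNF121, the members on either side of ZNF560 and ZNF426, were thus not low in NGP. Further along lies RPS4XP22 (ENSG00000239830), a processed pseudogene 8.21 kb upstream of ZNF562 that is no member. It was at 0.303 ± 0.526 normalized counts (SD, n = 3) in NGP controls against 178 ± 5.63 in those of SK-N-BE(2)c. RPS4XP22 passed the minimum level only through the SK-N-BE(2)c libraries, so this is a description and no test is given. Reads of its parent gene could be split with it, so that its counts are uncertain.

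**Figure D2:**
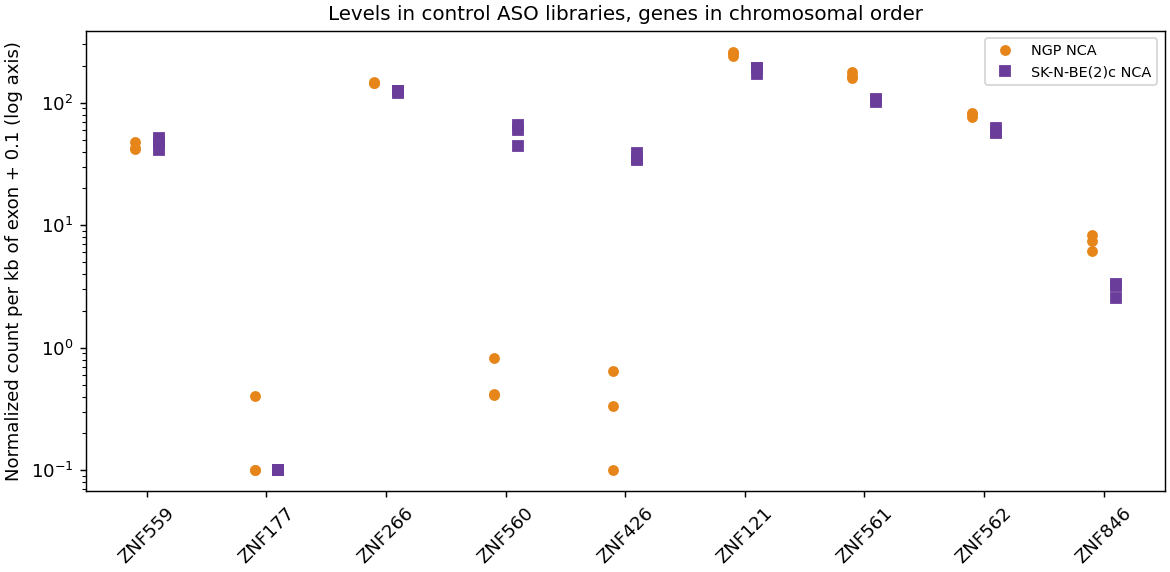
Normalized count per kb of exon plus 0.1 (log axis) in each control ASO library of NGP (circles) and SK-N-BE(2)c (squares), genes in chromosomal order. ZNF560 and ZNF426 lie more than an order of magnitude lower in NGP, while the genes on both sides lie close together in the lines.

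Per kb of exon, the order of levels with NCA was led by ZNF121 in every line, at a normalized count per kb of 390 ± 11.1 (SD, n = 4) in IMR32, 252 ± 9.24 (n = 3) in NGP and 185 ± 11.1 (n = 3) in SK-N-BE(2)c. IMR32 followed with ZNF266 at 134, ZNF562 at 84.7, ZNF561 at 68.7, ZNF426 at 66.8 and ZNF559 at 64.5 per kb, of which neighbours among the last 3 overlapped. ZNF846 (11.1), ZNF177 (2.24) and ZNF560 (0.104) came last there. In NGP the order after ZNF121 was ZNF561 (167), ZNF266 (145), ZNF562 (79.7), ZNF559 (44.1) and ZNF846 (7.19), and then ZNF560, ZNF426 and ZNF177, all below 0.5 per kb on average and overlapping with each other in that order. SK-N-BE(2)c had ZNF266 at 123, ZNF561 at 105, ZNF562 at 58.4, ZNF560 at 56.7 and ZNF559 at 46.3 per kb, with overlap from ZNF562 to ZNF559, then ZNF426 at 35.7, ZNF846 at 2.92 and ZNF177 with no read. IMR32 was scaled on its own by the authors, so no level of it is compared with NGP or SK-N-BE(2)c. Within IMR32, ZNF426 was expressed beside a ZNF560 with no more than 2 reads in any of the 12 libraries.

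With the anti-NESPR ASOs, both genes of the silent pair were higher in NGP. ZNF426, first described as an inhibitor of herpesvirus reactivation, was at 52.0, 31.6 and 28.9 normalized counts with ASO2 and at 93.7, 71.3 and 93.7 with ASO10. All 6 libraries lay above the highest NCA library at 4.10, and all 3 of ASO10 above those of ASO2. The log2(value + 1) differences were 3.94 for ASO2 and 5.16 for ASO10, and the ratios of read rates were 20.4 (95% exact interval 9.07 to 56.6) and 45.9 (20.8 to 126). Without NCA replicate 1, which held no read, the ratios were 13.4 and 30.1. Without NCA replicate 3, which held 4 of the 6 control reads, they were 42.5 and 95.7.

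ZNF560 was at 16.7, 5.92 and 4.45 normalized counts with ASO2 and at 83.6, 70.4 and 104 with ASO10 in NGP. The ASO2 libraries rest on 18, 6 and 4 reads, and ASO2 replicate 1 stood apart from the other two, while all ASO10 libraries were far above. The log2 differences to NCA were 1.97 for ASO2 and 5.27 for ASO10, with ratios of 7.5 (2.62 to 29.4) and 68.6 (26.5 to 254). Without ASO2 replicate 1 the ASO2 ratio was 4.19 (1.21 to 18.3), and without NCA replicate 1 the ratios were 6.57 and 60.1. On the log2 scale, ASO2 minus ASO10 was -3.29 for ZNF560 and -1.22 for ZNF426. Even with ASO10, ZNF426 in NGP (86.2 ± 12.9, n = 3) stayed below its level in SK-N-BE(2)c controls (269 ± 20.9, n = 3), and ZNF560 (85.8 ± 16.7) below 161 ± 31.5.

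In SK-N-BE(2)c, where both genes were already expressed, both rose with both ASOs. ZNF426 stood at 457, 425 and 505 normalized counts for ASO2 and at 397, 408 and 447 for ASO10, and its controls were the 254, 260.1 and 293 given above. Every ASO library was above every NCA library, with log2 fold changes of 0.78 (SE 0.0922, limma adjusted p 2.15e-08) and 0.63 (SE 0.0922, adjusted p 1.2e-06). ZNF560 stood at 277, 275 and 302 for ASO2 and at 245, 298 and 276 for ASO10, over controls of 126, 171 and 186. Its groups did not overlap with NCA either, and the log2 fold changes were 0.84 (SE 0.123, adjusted p 9.42e-07) and 0.77 (SE 0.123, adjusted p 4.94e-06). Between ASO2 and ASO10 the difference in this line was 0.15 for ZNF426 (SE 0.0922, adjusted p 0.168) and 0.07 for ZNF560 (SE 0.123, adjusted p 0.658). The comparisons with NCA share their control libraries and are not independent of each other.

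In IMR32, ZNF426 rose with both ASOs by a smaller amount and ZNF560 stayed at the floor of detection. ZNF426 stood at 679.9, 610.3, 645.5 and 629 normalized counts for ASO1, at 629.8, 636.5, 579 and 681 for ASO2, and at 521.5, 517, 466 and 512 in controls. Neither ASO group overlapped with NCA, and the log2 fold changes were 0.35 (SE 0.0601, limma adjusted p 0.00019) and 0.32 (SE 0.0601, adjusted p 0.000386). The ASO groups overlapped with each other (0.02, adjusted p 0.83). ZNF560 had at most 2 reads in each IMR32 library, so no fold change is given and a change at this depth was not detectable.

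**Figure D3:**
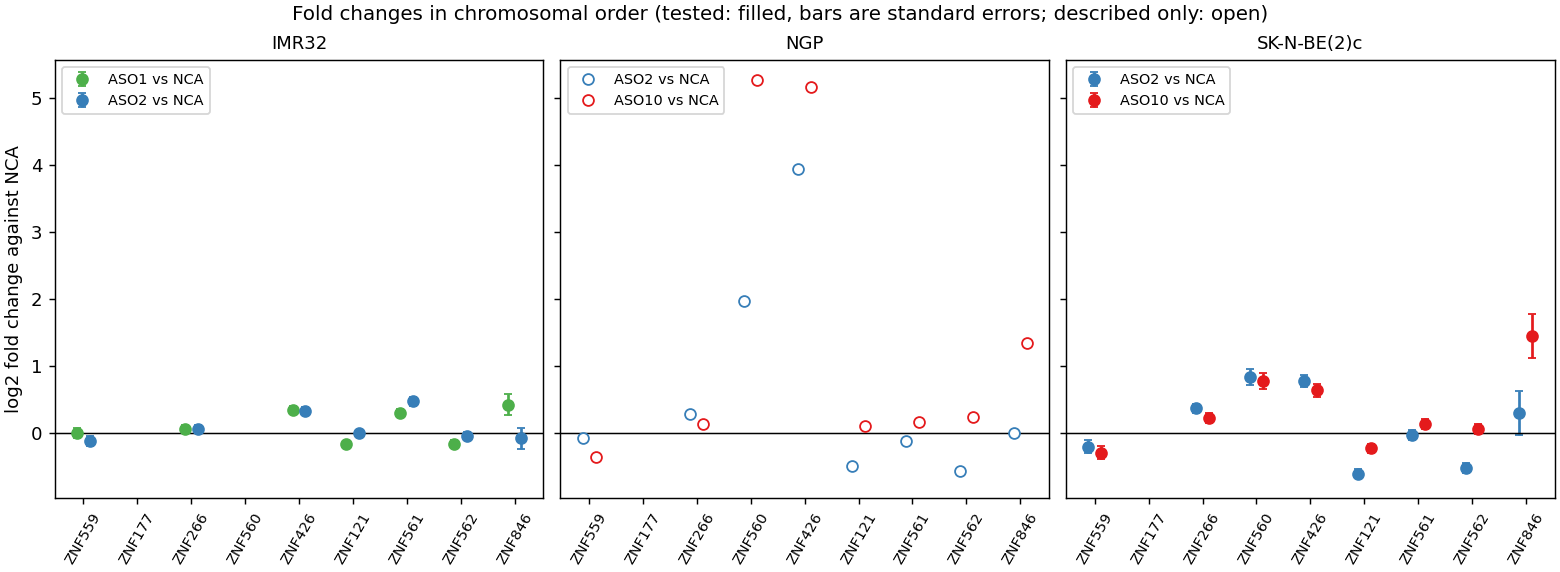
Difference in log2(value + 1) against NCA of the same line for each gene, in chromosomal order. Filled points with bars (standard error) were tested in IMR32 (n = 4 a group) and SK-N-BE(2)c (n = 3), and open points in NGP are described only. The NGP points of ZNF560 and ZNF426 reach 5.27 and 5.16 with ASO10, and genes without a point were below the minimum level.

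ZNF121 and ZNF562, on the far side of ZNF426, were lower with ASO2 than with ASO10 in both lines that had both ASOs. ZNF121, reported to bind MYC, was at 820, 889 and 933 normalized counts with ASO2 in SK-N-BE(2)c, at 1196, 1131 and 1105 with ASO10, and at 1249, 1380 and 1396 with NCA. The 3 groups did not overlap. It fell by 0.61 on the log2 scale with ASO2 (SE 0.0671, limma adjusted p 6.05e-09) and by 0.23 with ASO10 (SE 0.0671, adjusted p 0.00459), and the ASOs differed by -0.38 (ASO2 minus ASO10, adjusted p 1.63e-05). ZNF562 stood at 503, 509 and 564 for ASO2, at 791, 745 and 831 for ASO10, and at 731, 801 and 745 in controls. Only the ASO2 group stood apart, with a fall of 0.53 (SE 0.0742, adjusted p 3.85e-07), against 0.06 for ASO10 (adjusted p 0.538) and -0.59 between the ASOs (adjusted p 7.66e-08).

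In NGP, too, ASO2 was the lowest group for both genes, but ZNF121 with ASO10 averaged above NCA rather than below it. ZNF121 stood at 1266, 1313 and 1308 normalized counts for ASO2, at 2052, 1875 and 1983 for ASO10, and at 1753, 1862 and 1875 in controls (log2 differences to NCA -0.50 and 0.11). Only ASO2 stood clearly below the controls, since the lowest ASO10 and the highest NCA library rounded to the same count. ZNF562 stood at 677, 752 and 674 for ASO2, at 1246, 1200 and 1203 for ASO10, and at 1044, 997 and 1067 in controls (-0.56 and 0.23), with no overlap among the 3 groups. ASO2 minus ASO10 was -0.60 for ZNF121 and -0.80 for ZNF562 in this line.

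In IMR32 ZNF121 was lower with ASO1 rather than ASO2, while ZNF562 with ASO1 was called lower against NCA but not against ASO2. ZNF121 stood at 2671, 2477, 2478 and 2508 normalized counts for ASO1, at 2849, 2878, 2763 and 2856 for ASO2, and at 2867, 2901, 2838 and 2716 in controls. ASO1 stood apart from both other groups (log2 fold change -0.16 against NCA, SE 0.0425, limma adjusted p 0.00728, and -0.16 against ASO2, adjusted p 0.0085), and ASO2 against NCA was 0.00 (adjusted p 0.966). ZNF562 averaged 1101 ± 70 in the controls, 984 ± 51.2 with ASO1 and 1065 with ASO2. It differed by -0.11 for ASO1 minus ASO2 (limma adjusted p 0.153) and -0.05 for ASO2 minus NCA (adjusted p 0.559), both with overlap. Its fall of 0.16 with ASO1 (adjusted p 0.0344) was lost without any 1 of 6 libraries (ASO1 replicates 2, 3 and 4 and NCA replicates 1, 2 and 3, adjusted p 0.0581 to 0.109) and without the minimum level (adjusted p 0.0773).

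ZNF846, at the far end of the cluster, was higher with ASO10. Its normalized counts in SK-N-BE(2)c were 31.6, 32.7 and 33.5 with ASO10, 22.1, 11.8 and 10.8 with ASO2, and 12.6, 12.1 and 9.64 with NCA. ASO10 stood above both other groups, which overlapped. The log2 fold change was 1.44 for ASO10 (SE 0.333, limma adjusted p 0.000515), 0.29 for ASO2 (SE 0.333, adjusted p 0.445), and -1.15 for ASO2 minus ASO10 (adjusted p 0.00358). NGP gave 66.2, 75.1 and 75.9 with ASO10, 35.3, 19.8 and 31.2 with ASO2, and 23.7, 31.9 and 28.7 with NCA, a ratio of 2.58 (95% exact interval 2.01 to 3.33) for ASO10 and 1.02 (0.753 to 1.39) for ASO2. IMR32 controls were at 43.3 ± 1.4, with 58.7 ± 7.65 for ASO1 and 41.8 for ASO2, and the ASO1 difference of 0.42 missed the threshold (SE 0.159, limma adjusted p 0.0544). It passed with edgeR on the recovered reads (adjusted p 0.0474), with a replicate block (0.027) and without ASO1 replicate 1 (0.045).

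ZNF266 rose with both ASOs in SK-N-BE(2)c and ZNF561 with both ASOs in IMR32. ZNF266 went in SK-N-BE(2)c, to 858 ± 60.6 normalized counts with ASO2 and 775 ± 23.4 with ASO10 against 664 ± 11.6 in controls (log2 fold change 0.37 with a limma adjusted p of 4.04e-05, and 0.22 with 0.00797). In NGP it was at 954, 860.3 and 785 ± 9.66 in the same order, with both ASO groups above NCA, and IMR32 controls were at 722, against 753 for either ASO (adjusted p 0.498 and 0.514). ZNF561 went in IMR32 to 547 ± 25.2 with ASO1 and 617 ± 46.8 with ASO2 against 445 ± 20.5 with NCA (0.30 and 0.47, adjusted p 0.000998 and 1.16e-05). SK-N-BE(2)c controls averaged 679, against 668 for ASO2 and 744 for ASO10 (adjusted p 0.769 and 0.132). NGP controls averaged 1083, against 999 and 1216, with ASO2 below and ASO10 above the NCA libraries.

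ZNF559, the first gene of the cluster, was lower with ASO10 than with NCA in SK-N-BE(2)c and NGP. SK-N-BE(2)c libraries held 264, 244 and 257 normalized counts for ASO10, 275, 263 and 275 for ASO2, and 280.4, 316 and 346 in controls. Both ASO groups lay below NCA, and ASO10 passed the test (log2 fold change -0.29, limma adjusted p 0.0124) while ASO2 did not (-0.21, adjusted p 0.0653). ASO2 minus ASO10 was 0.09 (limma adjusted p 0.457), and these groups overlapped. Without NCA replicate 3 the ASO10 value was -0.22 (adjusted p 0.0873), and without NCA replicate 1 the ASO2 value was -0.29 (adjusted p 0.0214). NGP gave 299 ± 22.8 with NCA, 282 with ASO2 and 232 ± 10.5 with ASO10, and IMR32 gave 438, 401 and 438 with ASO1, ASO2 and NCA (adjusted p 0.993 and 0.227). ZNF177, reported as silenced by promoter methylation in some tumours, averaged 4.25, 2.72 and 6.67 in those IMR32 groups, below the minimum level, and shares 86.8% of its 50-base stretches with the read-through gene ZNF559-ZNF177. Its reads and those of the read-through gene cannot be told apart over that length.

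The members' calls stand beside those over all genes. In SK-N-BE(2)c with ASO2, 5 of the 8 members tested were called (3 higher, 2 lower), against 67% of 13556 genes in either direction (33.6% higher, 33.4% lower). With ASO10, 6 of 8 were called (4 higher, 2 lower), against 58.9% (27.8% higher, 31.1% lower), and between the ASOs 3 of 8 were called, all lower with ASO2, against 65.4% (34.6% higher, 30.8% lower). In IMR32, 4 of 7 were called with ASO1 (2 in each direction) against 28% of 17309 genes (13.6% higher, 14.4% lower), and 2 of 7 with ASO2, both higher, against 32.4% (17.6% higher, 14.8% lower). ASO1 against ASO2 in IMR32 called ZNF846 as higher and ZNF121 as lower, against 9.17% and 12.8% of all genes in those directions (21.9% in either), and the ZNF846 call (0.50, limma adjusted p 0.0287) was lost without ASO1 replicate 3 or 4 or ASO2 replicate 1 or 2, where the adjusted p ran from 0.0513 to 0.112.

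In NGP, where the rule used these values, 2 of 8 members were at least 1 log2 unit higher with ASO2 (ZNF426 and ZNF560) and 3 with ASO10 (also ZNF846), and 3 were at least 1 lower with ASO2 than with ASO10. That size was reached by 3.95% of 14440 genes upward and 6.01% downward with ASO2, by 7.45% and 4.29% with ASO10, and by 3.77% and 9.17% between ASO2 and ASO10. Just inside that size was ZNF846 at 1.34 with ASO10, and the next member was ZNF559 at -0.36. With ASO2 the pair was followed by ZNF562 at -0.56.

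The other zinc finger genes of 19p13.2, 32 genes listed by symbol, had more calls higher than lower in each comparison with NCA. In SK-N-BE(2)c 14 of 28 tested were called higher and 5 lower with ASO2, and 16 higher and 2 lower with ASO10, with median log2 fold changes of 0.36 and 0.40 against -0.02 and -0.03 over all genes. There limma called 33.6% of all genes higher and 33.4% lower with ASO2, and 27.8% and 31.1% with ASO10. In NGP 16 of 26 were higher and 3 lower with ASO2, and 17 higher and 0 lower with ASO10 (medians 0.43 and 0.42), where over all genes limma called 30.6% higher and 28.1% lower with ASO2, and 26.8% higher and 27.6% lower with ASO10. In IMR32, 8 of 28 were higher and 1 lower with ASO1, though the median was -0.01, and 12 higher and 2 lower with ASO2 (median 0.17). Over all genes the shares were 13.6% higher and 14.4% lower with ASO1, and 17.6% and 14.8% with ASO2. ZNF317 had the smallest adjusted p of those that rose with ASO2 in SK-N-BE(2)c (0.90, adjusted p 4.34e-13), and it also rose with ASO10 there (0.60) and in the other lines (0.19 to 0.59). ZNF699 rose by 1.22 with ASO2 in SK-N-BE(2)c (adjusted p 3.2e-06) and by 1.17 in NGP. ZNF791 (-1.13, adjusted p 1.31e-11) and ZNF69 (-1.84, adjusted p 1.37e-07) fell with ASO2 in SK-N-BE(2)c.

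The ZNF genes of all chromosomes, without the 9, leaned the same way. In SK-N-BE(2)c 188 of 411 tested were called higher and 60 lower with ASO10 (45.7% and 14.6%), and 176 higher and 105 lower with ASO2 (42.8% and 25.5%). Over all genes the shares were 27.8% and 31.1% with ASO10, and 33.6% and 33.4% with ASO2. The ASO2 figures depend on scaling. With every library rescaled to the same total they were 152 and 127 (37% and 30.9%), beside 3503 higher and 5622 lower of all 13556 genes. That scaling moved the median of all genes from -0.02 to -0.15. In NGP 158 of 393 were higher and 71 lower with ASO2 (40.2% and 18.1%, against 30.6% and 28.1% over all genes), and 179 and 43 with ASO10 (45.5% and 10.9%, against 26.8% and 27.6%). In IMR32 79 of 418 were higher and 40 lower with ASO1, and 131 and 36 with ASO2, against 13.6% higher and 14.4% lower over all genes with ASO1 and 17.6% and 14.8% with ASO2.

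**Figure D4:**
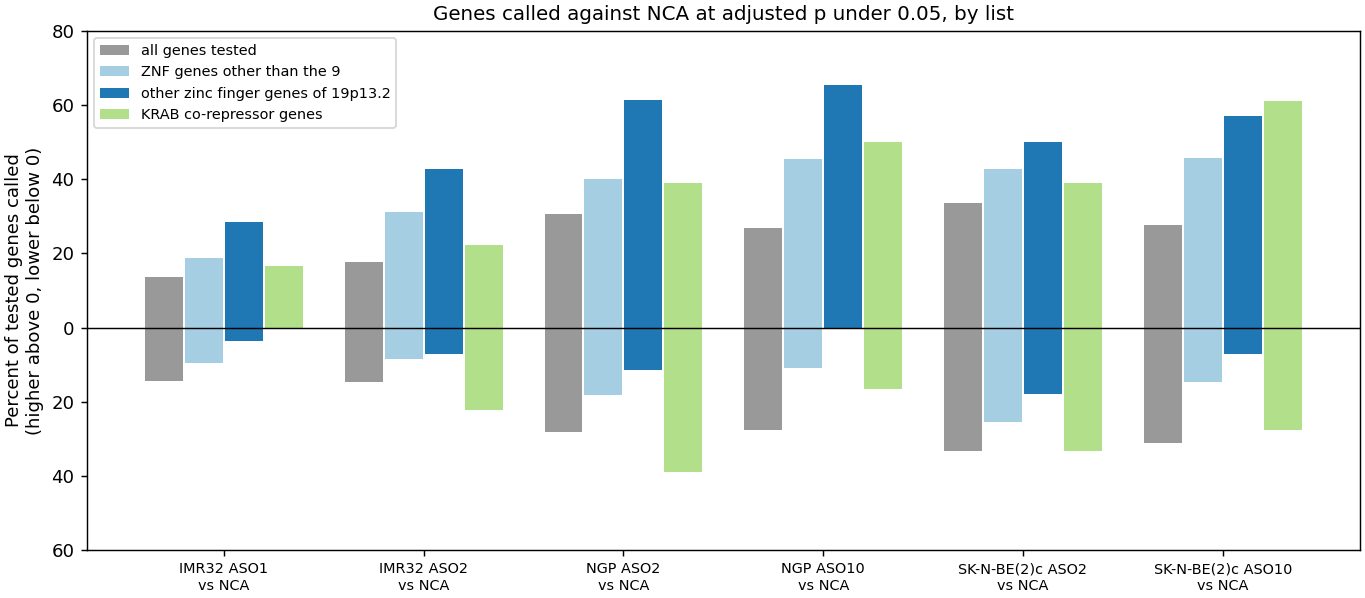
Percent of tested genes called higher (bars above 0) and lower (bars below 0) against NCA at a limma adjusted p under 0.05, for all genes and 3 lists without the 9 genes. In each comparison the light blue and dark blue bars of ZNF genes reach higher above 0 than the grey bar, while the green bars of KRAB co-repressor genes go both ways with ASO2 (7 higher and 6 lower of 18 in SK-N-BE(2)c).

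Among 18 genes of the KRAB silencing machinery, SETDB1 and CBX5 fell with ASO2 by more than 1 log2 unit in NGP and SK-N-BE(2)c. SETDB1, which writes the repressive H3K9 methyl mark, fell with ASO2 by 1.35 on the log2 scale in SK-N-BE(2)c (SE 0.0599, limma adjusted p 8.66e-17), by 1.53 in NGP (adjusted p 7.07e-16) and by 0.32 in IMR32 (adjusted p 5.46e-05). With ASO10 SETDB1 was at 0.43 in SK-N-BE(2)c (adjusted p 5.94e-07) and 0.08 in NGP (adjusted p 0.247), and with ASO1 in IMR32 at -0.11 (adjusted p 0.11). CBX5, which encodes HP1 alpha, fell with ASO2 by 1.13 in SK-N-BE(2)c (adjusted p 4e-17) and by 1.08 in NGP, and by 0.18 and 0.23 with ASO10. TRIM28 rose with every ASO, by 0.48 and 0.28 with ASO2 and ASO10 in SK-N-BE(2)c, 0.13 and 0.16 in NGP, and 0.16 and 0.22 with ASO1 and ASO2 in IMR32, except that the NGP rise with ASO2 was not called after rescaling to the same total (0.06, adjusted p 0.37). In all, 7 of 18 were higher and 6 lower with ASO2 in SK-N-BE(2)c (5 and 10 when rescaled), 11 and 5 with ASO10, 7 and 7 with ASO2 in NGP (4 and 8 when rescaled), and 9 and 3 with ASO10 (8 and 5 when rescaled). IMR32 gave 3 and 0 with ASO1, and 4 and 4 with ASO2. Over all genes the shares called higher and lower were 33.6% and 33.4% with ASO2 and 27.8% and 31.1% with ASO10 in SK-N-BE(2)c, and in NGP and IMR32 those given above, so that the ASO2 counts in SK-N-BE(2)c before rescaling are near the background. When rescaled, 3503 of all 13556 genes were higher and 5622 lower with ASO2 in SK-N-BE(2)c. In NGP 8358 of 14440 were then called in either direction with ASO2 and 7857 with ASO10. Between ASO2 and ASO10 in SK-N-BE(2)c 5 of 18 were higher and 8 lower, against 34.6% and 30.8%. The levels of ZNF426 and ZNF560 in NGP were higher with ASO10, where SETDB1 was not called, than with ASO2, where it fell, and its part in their levels was not tested.

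Around the cluster, the genes that lie 5′ of the members on the same strand were mostly other members. ZNF121 lies 21.7 kb upstream of ZNF426, and ZNF426 lies 24.6 kb upstream of ZNF560. ZNF121 was lower with ASO2 and ZNF426 higher, in NGP as in SK-N-BE(2)c. FBXL12, an F-box gene 17.1 kb upstream of ZNF846 in the annotation used for order, differed from NCA by -0.02 to 0.07 on the log2 scale in the 6 comparisons with NCA, with limma adjusted p from 0.474 to 0.961. The RefSeq promoter of ZNF846 (chr19:9768739-9768988) lies inside its GENCODE gene span, so FBXL12 is farther from that start site. RPS4XP22, upstream of ZNF562, was at 0.303 to 1.34 normalized counts on average in the 3 NGP groups, and rose in SK-N-BE(2)c by 0.43 with ASO2 (adjusted p 0.00148) and by 0.30 with ASO10 (adjusted p 0.0229). In IMR32 it differed by -0.07 with ASO1 and 0.19 with ASO2 (adjusted p 0.72 and 0.264). OR7D2, an olfactory receptor gene 135 kb upstream of ZNF559, was at 31.5 ± 5.24 normalized counts with ASO10 in NGP against 2.47 ± 0.936 with NCA and 3.89 ± 2.49 with ASO2, and at 16.3 ± 7.47, 1.34 ± 1.16 and 2.17 ± 1.29 in SK-N-BE(2)c in the same order. Of 16 flanking genes in all, 5 were tested in SK-N-BE(2)c, of which 3 were higher and 1 lower with ASO2, and 2 higher with ASO10. Over all genes the shares higher and lower were 33.6% and 33.4% with ASO2, and 27.8% and 31.1% with ASO10. In NGP 2 of 7 were higher and 1 lower with ASO2, and 3 and 1 with ASO10. Over all genes the shares there were 30.6% and 28.1% with ASO2, and 26.8% and 27.6% with ASO10. The 3 higher with ASO10 in NGP include OR7D2, which reached the minimum level in that line only through its ASO10 libraries. Its place in that count is therefore a description. OR7D2 did not pass the minimum level in SK-N-BE(2)c and is not among the 5 tested there. In IMR32 2 of 7 were higher with ASO1 and 3 with ASO2, and 0 lower, against 13.6% and 17.6% higher over all genes. ZNF561-AS1, an antisense gene over the start of ZNF561 and part of ZNF562 named after its values were seen, was at 280 ± 14.6 with ASO10, 118 ± 2.12 with ASO2 and 172 ± 22.5 with NCA in NGP. SK-N-BE(2)c gave 92.7 ± 13.4, 39.7 ± 10.3 and 55.1 ± 6.84 (log2 fold change 0.74 for ASO10, limma adjusted p 0.00302, and -0.49 for ASO2, adjusted p 0.0385). ZNF562 had the same order of groups, and whether counting used strand is not given in the sources used here, so that reads of the overlapping genes cannot be told apart.

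Across the 18 libraries of NGP and SK-N-BE(2)c, each centred on its line, the genes most like ZNF426 among 12636 were LYL1 (Pearson r 0.978), ENSG00000233280 (0.949), CRYBG3 (0.919), UBA3 (0.918) and L3MBTL2-AS1 (0.917). LYL1 encodes a helix-loop-helix transcription factor and UBA3 a subunit of the NEDD8-activating enzyme. ZNF560 ranked 23 with an r of 0.888, but both genes had been selected on their fold changes in these same NGP libraries. That choice favours a high rank, so the rank is no support for a link between them. ZNF560 also reached the minimum level in NGP only through its ASO10 libraries. ZNF846 (0.506), ZNF266 (0.498) and ZNF561 (0.224) came lower, ZNF562 (-0.055) and ZNF121 (-0.157) were near 0, and ZNF559 was at -0.561. These r values are descriptions over libraries that share 2 lines and their controls, and the large NGP differences weigh most in them. Reads shared with other genes can touch these values: 4.67% of the 50-base stretches of ZNF426 and 0 of ZNF560 occur in transcripts of another gene, as do 13.9% of those of ZNF559 (0.473% without the read-through gene ZNF559-ZNF177), and 0.275% to 4.52% for ZNF266, ZNF121, ZNF846, ZNF562 and ZNF561.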

How the data were processed

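RNA sequencing was analysed in 30 libraries of 3 cell lines. The deposited values are normalized gene counts, treated as a signal, with 1 table per line, per the labels. The submitters' processing notes name FastQC 0.11.8, cutadapt 1.18, STAR 2.6.0, HTSeq 0.6.1, DESeq2 1.42.0 and hg19, without roles. The labels name a stranded total RNA kit and a stranded mRNA kit without assigning them to libraries. Annotation and strand setting are not given in the sources used here. Steps between low values gave each library's size factor, and 100% of values came out whole (tolerance 0.01). For IMR32, 174 entries that name no gene (0.172% of values) were left out. IMR32 was scaled on its own (median ratio 1.007 in its libraries), NGP and SK-N-BE(2)c together (1.012 in all 18). All replicate pairs differed beyond sampling noise (chi-square per degree of freedom 1.27 or more).

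Values were tested on the log2(value + 1) scale by limma 3.58.1 (R 4.3.3), with 1 mean per group and a variance trend, in genes with a mean of at least 10 (17309 in IMR32, 14440 in NGP, 13556 in SK-N-BE(2)c and 14537 jointly). A call needed an adjusted p (Benjamini-Hochberg, over all genes) under 0.05. This scale understates the change of low genes. The main test and its self-test on simulated data used 1 model per line, and NGP and SK-N-BE(2)c controls were compared in 1 model of 18 libraries. Read ratios of low genes have 95% exact binomial intervals, and 3 reads were the floor. Same-numbered replicates did not deviate together in every pair (correlations -0.0646 to 0.332), so no block was used. Alternatives were another scaling, pseudocount or filter, edgeR 4.0.16 on the recovered reads, a replicate block and leaving out each library.

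The members and lists were chosen with earlier results of these data known. The 9 members were all described. By rule, the text also names the 5 genes most like ZNF426, same-strand 5′ neighbours, and list genes with the smallest adjusted p, at most 2 per direction (SETDB1, CBX5 and TRIM28 then in every comparison). ZNF561-AS1, the split of the shared promoter stretch and the genes named beside counts were chosen after values or sequences were seen. Promoters are from RefSeq (GRCh38.p14), gene order from GENCODE release 29 matched by gene ID. Lists held 16 flanking genes, 32 other zinc finger genes of 19p13.2, 18 KRAB co-repressor genes and 468 other ZNF genes.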

Additional observations from a re-analysis of the deposited data

Results flagged for a closer look

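Of 24 groups of 4 libraries tested for a library far from the others, where chance marks about 1 in 20, 3 held one. ZNF561 in IMR32 with ASO2 had replicate 4 at 686.8 normalized counts, above the other libraries by 0.865 of the group's range. ZNF121 in IMR32 with ASO1 had replicate 1 at 2671, above the others by 0.84 of the range. ZNF177 in IMR32 with ASO2 had replicate 4 at 0, below the others by 0.931 of the range.

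For 2 members the same ASO moved every library of one line above its controls and every library of another line below them. ZNF561 with ASO2 was at a log2 fold change of 0.47 in IMR32 and -0.12 in NGP. ZNF121 with ASO10 was at 0.11 for NGP but -0.23 for SK-N-BE(2)c, and in NGP its lowest ASO10 library and its highest NCA library both round to 1875. The difference between the lines was not tested in either case, and the share of all genes that did the same was not counted.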

How the results depend on the processing

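Over 51 member results and 603 alternative values, 576 kept direction and side of the threshold, 12 no longer passed it, 15 newly passed it and 0 reversed. The calls lost belonged to ZNF562 (IMR32, ASO1), ZNF846 (IMR32, ASO1 against ASO2) and ZNF559 (SK-N-BE(2)c, ASO10). Leaving out 1 library at a time gave 3 to 5 member calls for ASO1 in IMR32, 2 for ASO2, 1 to 3 between them, 5 to 6 for each ASO in SK-N-BE(2)c, 3 to 4 between those, and 5 between controls. Rescaling to the same total added ZNF559 and ZNF561 as lower with ASO2 in SK-N-BE(2)c (adjusted p 0.00318 and 0.0489), and moved the share of called genes that were higher from 50.2% to 38.4% there, from 41.8% to 59.8% for ASO1 against ASO2 in IMR32, and from 52.9% to 42.2% for ASO2 against ASO10 in SK-N-BE(2)c. The cause was not tested. Between ASO1 and ASO2 in IMR32 the replicate block gave 4 member calls in place of 2, and it moved no other count of tested member calls by more than 1.5 times. Over all genes, edgeR on the recovered reads called 4897 with ASO1 in IMR32 where limma called 4850, while for ASO2 in SK-N-BE(2)c the counts were 9080 and 9078. Depth limits ZNF560 in IMR32, ZNF177 in all lines, and both ZNF426 and ZNF560 in NGP controls.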
